A study of Mus musculus with 2 samples.

Results

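The 89 genes described here are the numbered Gpr genes, that is, every gene that the array names Gpr followed by digits alone, with Gpr83 left out. They were covered by 104 of the 55681 noncontrol probes and made up 89 of 23895 named genes on the array. CD4 T cells of a co-culture were set against those of a naive-only culture. All cells were spleen cells of female OVA-TCR-Tg mice, whose T cells carry a transgenic receptor for ovalbumin (OVA), and both cultures received 0.1 mg/mL OVA for 24 h before sorting. The co-culture held fresh cells and, in equal number, cells treated beforehand with the superantigen TSST-1 (0.1 μg/mL), which the labels call anergic. The naive-only culture held fresh cells alone, at the same total cell density, so the co-culture had fewer fresh cells per mL. The cultures thus differed in fresh-cell density as well as in the presence of TSST-1 cells, and their separate effects were not tested. No age of the mice is given in the labels. The labels do not say whether CD4 sorting removed the TSST-1 cells, so the co-culture RNA may come from both populations. Each condition had 1 Cy3 array of amplified RNA, so no difference has a replicate check, no p-value was computed, and the error beside a log2 difference is the scanner software's technical error alone.

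G protein-coupled receptors are cell surface proteins that cross the membrane repeatedly and pass signals from lipids, protons, peptides or nutrients to heterotrimeric G proteins inside the cell. A receptor coupled to Gs raises cyclic AMP, one coupled to Gi lowers it, and those coupled to G12 or G13 act on the cytoskeleton. The Gpr numbers were given to receptors cloned before their ligands were known, so the series mixes receptors since paired with lipids, acid-sensing receptors, adhesion receptors with long extracellular stalks, membrane proteins of the Golgi and lysosome, and true orphans. In lymphocytes several of them steer migration or restrain activation.

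How many numbered Gpr genes counted as detected in these T cells depended on the call. Of the 89, 28 (31.5%) were well above background on both arrays, 4 (4.49%) on the co-culture array alone, 8 (8.99%) on the naive-only array alone and 49 (55.1%) on neither. Among all named genes those shares were 53.7%, 3.01%, 3.42% and 39.8%. With the software's looser call of a significant positive signal, 54 of the 89 were detected on at least 1 array and 35 on neither. Shares of all named genes under the looser call were not computed, and those above hold for the stricter call only. Among these 28, Gpr146 and Gpr179 (2 genes) passed 2-fold on the higher side in the co-culture, and Gpr183, Gpr25 and Gpr84 (3 genes) on the lower side. Over all measured genes the shares past 2-fold were 8.32% on the higher and 5.14% on the lower side, so the members' 2 and 3 of 28 were too few to set apart from that background. The median log2 difference of the 28 was 0.01, against -0.04 over all 12838 measured genes, and 12 of the 28 differed by less than their technical error. The CD4 T cell markers were bright on both arrays, all 8 within 2-fold (Cd3e gave 26948 scanner units in the co-culture and 20733 in the naive-only culture, Cd4 gave 17944 in the co-culture and 13954 in the naive-only culture). B cell markers were lower in the co-culture, all 9 measured ones by at least 2-fold (median -1.76, summed signal of the 11 on the array 2684 in the co-culture and 12102 in the naive-only culture). Of 10 measured myeloid and dendritic markers, 4 were at least 2-fold lower and none higher (summed signal of the 11 on the array 50986 in the co-culture and 55804 in the naive-only culture, most of it from Siglech), and none of 5 natural killer markers was above background on both arrays. RNA of other cells in the sort and RNA per T cell cannot be told apart in such bulk samples.

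**Figure D1:**
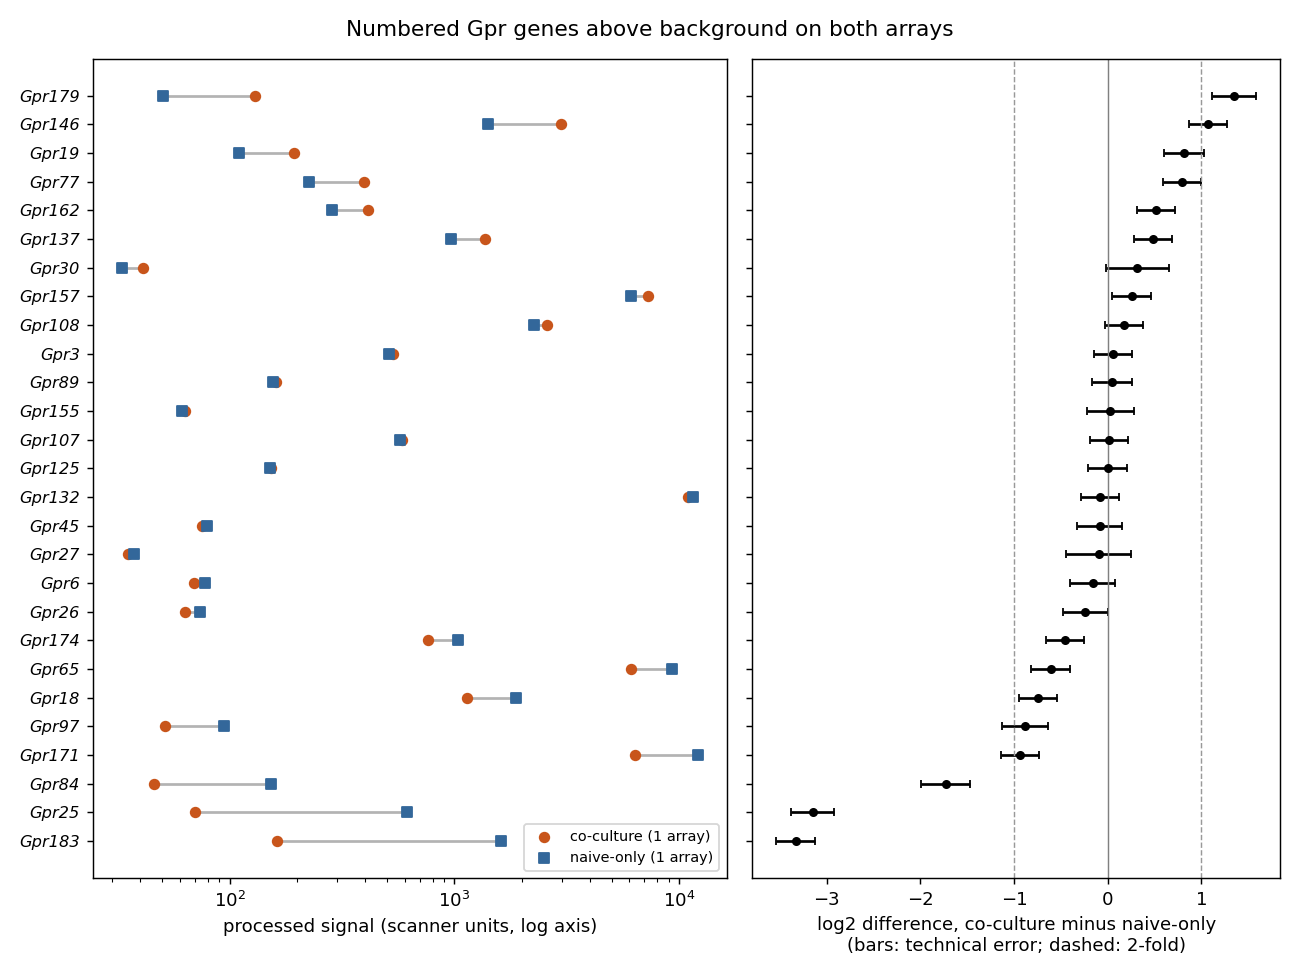
The left panel plots the processed signal (scanner units, log axis) of 27 of the 28 numbered Gpr genes above background on both arrays, with co-culture as circles and naive-only as squares, and the right panel the log2 difference of co-culture minus naive-only with its technical error. Gpr179 and Gpr146 lie past the 2-fold line on the higher side and Gpr84, Gpr25 and Gpr183 on the lower side; signals of different genes come from different probes and have no order among them.

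Some members that were lower in the co-culture lie beside each other in the genome, and the bases before their starts are shown for that reason. Gpr18 and Gpr183 are neighbouring genes on chromosome 14, as are Gpr56 and Gpr97 on chromosome 8, with no other protein-coding gene starting between them in RefSeq. Gpr18 and Gpr97 stayed within 2-fold. Other neighbouring members were not both lower, and how often neighbours are both lower over all genes was not computed. Each run below gives the 250 bases before a gene's start from RefSeq (GRCm38.p6), read on the gene's strand. Capitals mark the AP-1 motif TGANTCA, searched on both strands, and of the Gpr56 starts listed the second is shown.
Gpr183 (chr14:121965194-121965443, - strand): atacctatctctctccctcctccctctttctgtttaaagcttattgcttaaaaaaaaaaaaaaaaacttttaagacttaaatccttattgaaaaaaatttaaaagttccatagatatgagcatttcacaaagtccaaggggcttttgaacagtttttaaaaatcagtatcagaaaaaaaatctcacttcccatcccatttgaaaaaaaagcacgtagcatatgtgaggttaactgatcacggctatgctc
Gpr18 (chr14:121915889-121916138, - strand): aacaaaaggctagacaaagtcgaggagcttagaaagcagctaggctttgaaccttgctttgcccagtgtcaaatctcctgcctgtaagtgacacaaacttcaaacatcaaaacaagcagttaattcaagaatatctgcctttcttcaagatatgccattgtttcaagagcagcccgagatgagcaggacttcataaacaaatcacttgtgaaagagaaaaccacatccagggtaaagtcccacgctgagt
Gpr56 (chr8:94984149-94984398, + strand): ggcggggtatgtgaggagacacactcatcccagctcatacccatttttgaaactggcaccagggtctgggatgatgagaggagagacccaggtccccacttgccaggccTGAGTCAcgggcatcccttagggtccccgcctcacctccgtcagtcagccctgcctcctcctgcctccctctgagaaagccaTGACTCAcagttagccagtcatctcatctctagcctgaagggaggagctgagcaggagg
Gpr97 (chr8:95017442-95017691, + strand): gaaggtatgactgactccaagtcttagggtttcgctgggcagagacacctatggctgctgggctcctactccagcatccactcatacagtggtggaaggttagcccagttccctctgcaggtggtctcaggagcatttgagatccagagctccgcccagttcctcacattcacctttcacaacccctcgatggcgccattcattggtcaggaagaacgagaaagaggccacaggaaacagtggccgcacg
The Gpr56 window shown held the motif 2 times, while the window of the other listed Gpr56 start (chr8:94976859-94977108) and those of the other genes shown held none. Among all 32851 listed promoters, 6.75% held it in the same length, as did 5 (6.10%) of the 82 listed for 63 member genes. None of these 4 windows held the NFAT motif GGAAAA, the GAS motif TTCNNNGAA or the TATA motif TATAAA on either strand, which 20.4%, 7.02% and 12.4% of all promoters held, as did 9, 5 and 7 of the members' 82. A match here is only a run of letters, and the search says nothing about whether a factor bound.

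Among the 15 receptors with reported lipid ligands, 7 were measured on both arrays, 2 of them at least 2-fold lower in the co-culture (5.14% of all measured genes) and none at least 2-fold higher (8.32% of all), which is too few genes to describe the group. Gpr183, also called EBI2, is the receptor for the oxysterol 7α,25-dihydroxycholesterol and guides activated lymphocytes within spleen and lymph nodes. Its signal was 162 scanner units in the co-culture and 1619 in the naive-only culture. That is a log2 difference of -3.33 ± 0.21, the largest among the members measured on both arrays, and -2.87 with normexp, another way of correcting background. The probe lies on chromosome 14 at 122351881 to 122351940 (mm9). Its neighbour Gpr18, a receptor for which N-arachidonyl glycine has been proposed as a ligand, gave 1134 in the co-culture and 1887 in the naive-only culture, a difference of -0.74 ± 0.20, from a probe 40273 bases away (122311608 to 122311667). Both neighbours were lower, but Gpr18 stayed within 2-fold. B cells also express Gpr183 and Gpr18, and B cell markers were lower on the same array, with Ms4a1 at -5.03 and Cd79a at -1.76. The part of B cell RNA in either difference was not tested.

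Gpr84, a receptor for medium-chain fatty acids best known from myeloid cells, gave 46.2 in the co-culture and 152 in the naive-only culture, a log2 difference of -1.73 ± 0.26 or 3.32-fold lower. With normexp it was 1.98-fold lower, just short of 2-fold. Of 10 measured myeloid and dendritic markers, 4 were at least 2-fold lower, among them Cd14 at -1.71 and Lyz2 at -1.12. The other 6 were within 2-fold, among them Itgam at 0.37, Csf1r at -0.06 and Adgre1 at -0.09. The part of such cells in the Gpr84 value was not tested. The lysophosphatidylserine receptor gene Gpr174, which restrains T cell activation in mice, had measurements from a pair of probes that gave similar differences. The brighter gave 761 in the co-culture and 1038 in the naive-only culture (-0.46 ± 0.20), and the dimmer 82.1 in the co-culture and 110 in the naive-only culture (-0.43). Gpr34, another receptor for that lipid, was below background on both arrays, at 4.45 in the co-culture and 4.10 in the naive-only culture.

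The remaining lipid receptors were near the limits of the arrays or alike on both. Gpr55, which responds to lysophosphatidylinositol, gave 33.3 in the co-culture, where it was above background, and 15.3 in the naive-only culture, where it was not. This sets a bound of at least 1.79-fold higher, or 1.19-fold with normexp. Gpr3, a receptor that raises cyclic AMP without an added ligand, gave 535 in the co-culture and 510 in the naive-only culture. Its relative Gpr6 gave 69.7 in the co-culture and 77.5 in the naive-only culture. The differences of both, 0.06 and -0.16, were within the technical error. Gpr30, now Gper1, an estrogen receptor of the membrane, was at 0.32 ± 0.34. Another 7 genes were not above background on either array, among them Gpr44, now Ptgdr2, the prostaglandin D2 receptor of type 2 helper cells (6.70 in the co-culture and 5.24 in the naive-only culture), Gpr119, and Gpr35 on all 3 of its probes.

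The acid-sensing receptors form a group of 4, and 3 of them were measured on both arrays and stayed within 2-fold. Of all measured genes, 13.5% passed 2-fold either way, so these 3 are too few to set apart from that background. Gpr132, which also responds to lysophospholipids and oxidized fatty acids, gave 10978 in the co-culture and 11569 in the naive-only culture, a log2 difference of -0.08 ± 0.20. Gpr65, also called TDAG8, which raises cyclic AMP when the surroundings turn acid, was printed in 10 spots per array. Those spots ran between 6004 and 6366 in the co-culture and between 8819 and 9937 in the naive-only culture. The spots of one array do not overlap with those of the other, and the difference was -0.61 ± 0.20, though repeated spots measure the noise of printing and not that of cultures. Gpr4, known from blood vessel endothelium, was above background in the naive-only culture alone, with 10.2 in the co-culture and 53.9 in the naive-only culture, so it was at least 2.68-fold lower, or 1.46-fold with normexp. A second Gpr4 probe was below background on both arrays.

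Receptors paired with peptides, nutrients or ions held the second large difference. Gpr25, an orphan for most of its history and a relative of the gut homing receptor Gpr15, gave 70.0 in the co-culture and 617 in the naive-only culture. The log2 difference was -3.15 ± 0.23, or 8.87-fold lower (5.07-fold with normexp), from a probe on chromosome 1 at 138155560 to 138155619 (mm9). The other Gpr25 probe, at 138156517 to 138156576, was below background on both arrays, with 6.74 in the co-culture and 12.0 in the naive-only culture. Gpr15 itself was below background on both, with 14.2 in the co-culture and 7.01 in the naive-only culture. Gpr171, a receptor for the peptide BigLEN that is expressed in T cells, gave 6368 in the co-culture and 12088 in the naive-only culture, a difference of -0.93 ± 0.20, short of 2-fold. Gpr77, now C5ar2, a second receptor for complement C5a, was higher in the co-culture by 0.79 ± 0.21 on its brighter probe and by 0.96 on the other, whose position overlaps it. Gpr1, a receptor for chemerin, and Gpr39, which senses zinc, were above background in the naive-only culture alone. Gpr1 gave 4.04 in the co-culture and 60.6 in the naive-only culture, at least 3.02-fold lower (1.68-fold with normexp), and Gpr39 8.33 in the co-culture and 39.7 in the naive-only culture, at least 1.98-fold lower.

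**Figure D2:**
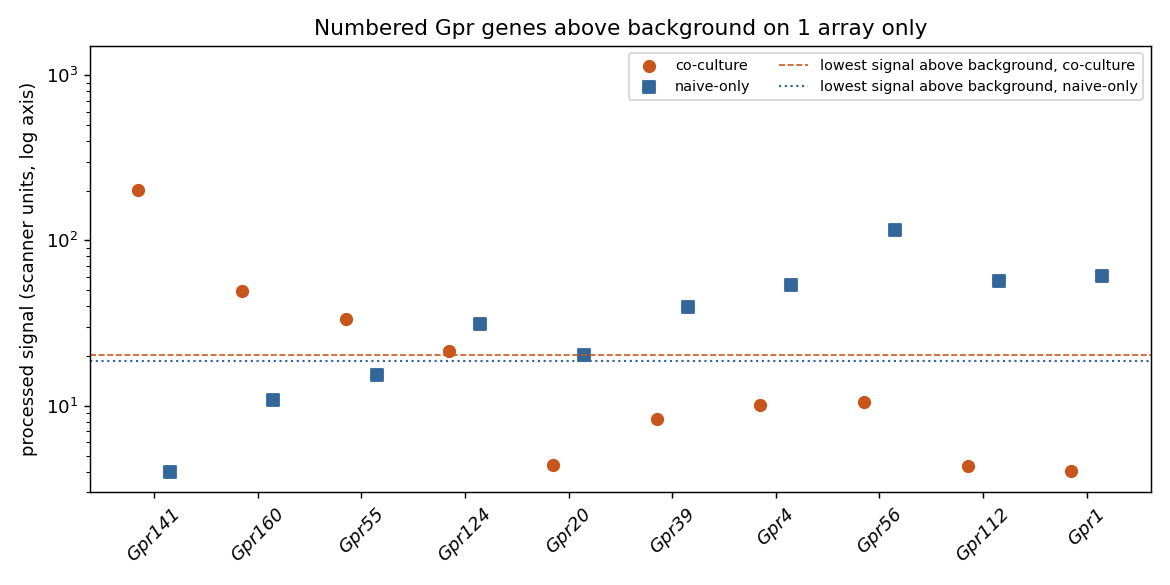
Processed signal (scanner units, log axis) of 10 of the 12 numbered Gpr genes above background on 1 array only, with co-culture as circles left of naive-only as squares. Dashed and dotted lines give the lowest signal called above background on each array, 20.2 in the co-culture and 18.5 in the naive-only culture; Among those shown, Gpr141 stands farthest above it in the co-culture and Gpr56 in the naive-only culture.

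The adhesion receptors, which cut their own extracellular stalk and bind matrix or neighbouring cells, were mostly not called above background. Of 17, 11 (64.7%) were above background on neither array, beside 55.1% of all members, 64.5% of the genes with no settled ligand and 39.8% of all named genes. The neighbours Gpr56 and Gpr97 on chromosome 8 were both lower in the co-culture. Gpr56, now Adgrg1, a marker of cytotoxic lymphocytes in humans, gave 10.5 in the co-culture and 116 in the naive-only culture, where alone it was above background, so it was at least 5.76-fold lower. Gpr97, now Adgrg3, known from neutrophils in humans and mice, gave 51.6 in the co-culture and 94.4 in the naive-only culture, a difference of -0.88 ± 0.24. Their probes lie at 97537978 to 97538037 and 97568989 to 97569048 (mm9), and each gene rests on 1 probe. With normexp the bound of Gpr56 was 2.30-fold. Of the 5 natural killer markers, Ncr1 and Klra8 were likewise above background in the naive-only culture alone. The other natural killer markers, Klrb1c, Klra4 and Klre1, were above background on neither array. The CD8 T cell markers Cd8a and Cd8b1 were within 2-fold, at 0.52 and -0.56. The part of such cells in the Gpr56 value was not tested.

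Further adhesion receptors gave smaller bounds or no difference. Gpr125, now Adgra3, gave 153 in the co-culture and 152 in the naive-only culture on its brighter probe. Its other probe was below background on both arrays, at 4.33 in the co-culture and 3.97 in the naive-only culture. Gpr112 had 1 probe above background in the naive-only culture alone (4.34 in the co-culture and 56.9 in the naive-only culture, at least 2.84-fold lower, or 1.55-fold with normexp), while its other probe was below background on both. Gpr124, now Adgra2, a receptor of brain blood vessel growth, was above background in the naive-only culture alone, but its bound was only 1.46-fold.

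Among 31 genes with no settled ligand, 7 were measured on both arrays, 1 of them past 2-fold on the higher side in the co-culture (8.32% of all measured genes) and none on the lower side (5.14% of all). Gpr146, an orphan tied to blood cholesterol in mice and humans, gave 2980 in the co-culture and 1412 in the naive-only culture, a log2 difference of 1.07 ± 0.20 or 2.10-fold. The margin over 2-fold is smaller than the technical error. Gpr141, an orphan expressed in blood cells, was above background in the co-culture alone. It gave 203 in the co-culture and 3.97 in the naive-only culture, at least 10.9-fold higher (3.48-fold with normexp), from a probe on chromosome 13 at 19841612 to 19841671 (mm9). Gpr160 was also above background there alone, with 49.2 in the co-culture and 10.9 in the naive-only culture, at least 2.64-fold higher, or 1.49-fold with normexp. Gpr20 was only just above background in the naive-only culture alone, with a bound of 1.01-fold. Gpr19, reported to vary through the cell cycle, gave 193 in the co-culture and 110 in the naive-only culture, a difference of 0.81 ± 0.21. Gpr157, a receptor of neural progenitor cilia, gave 7295 in the co-culture and 6074 in the naive-only culture, higher by 0.26 ± 0.20.

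Proteins that carry a Gpr name but work in internal membranes gave small differences. Of 7, 5 were measured on both arrays, all 5 within 2-fold and all with positive differences. Of all measured genes, 13.5% passed 2-fold either way, so these 5 are too few to set apart from that background. Gpr108 and Gpr107, related proteins of the Golgi, were at 0.18 and 0.02. Gpr89, a channel that sets Golgi pH, was at 0.05, and Gpr155, a lysosomal cholesterol sensor, at 0.03. These 4 were within their technical error. Gpr137, a lysosomal protein, was at 0.48 ± 0.20. Of 3 class C receptors, whose best known relatives bind glutamate, Gpr179 alone was above background. This orphan of retinal bipolar cells gave 129 in the co-culture and 50.3 in the naive-only culture, a difference of 1.35 ± 0.24, or 2.55-fold, which normexp reduced to 1.69-fold.

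**Figure D3:**
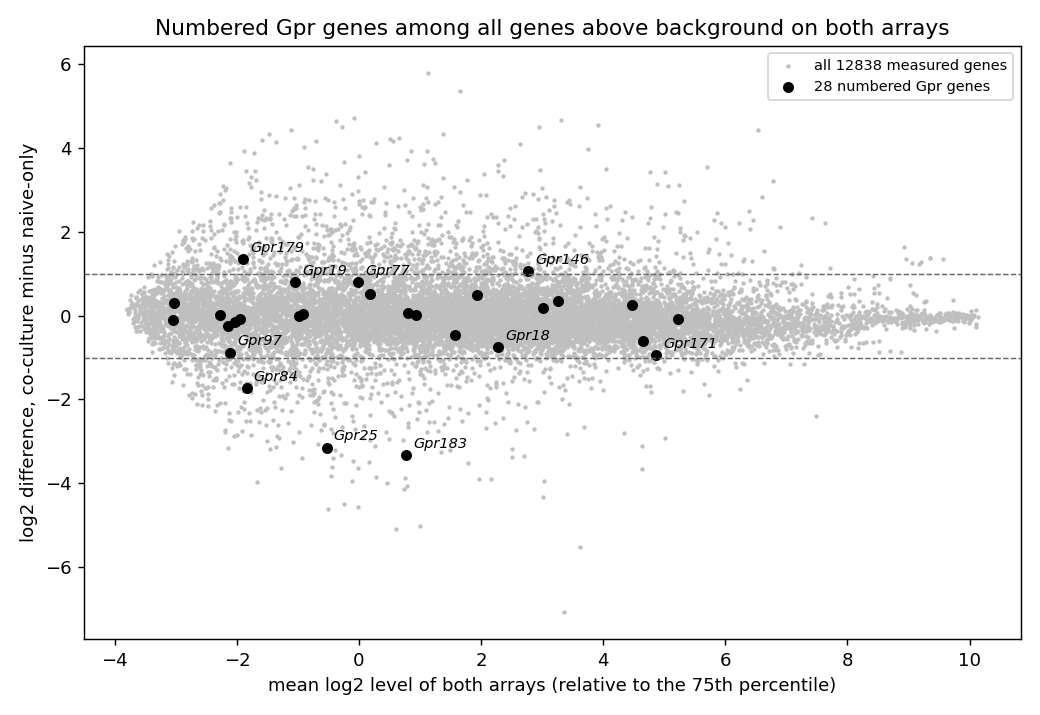
Log2 difference of co-culture minus naive-only against the mean log2 level of both arrays (relative to the 75th percentile) for all 12838 named genes above background on both arrays in grey, with the 28 numbered Gpr genes in black and dashed lines at 2-fold. Gpr183 at -3.33 and Gpr25 at -3.15 lie far below the 2-fold line, and most other members lie between the lines.

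Few of the genes that such receptors signal through passed 2-fold. Of 64 genes for G protein subunits, arrestins, receptor kinases and the cyclic AMP pathway, 47 were measured on both arrays, 6 (12.8%) past 2-fold on the higher side (background 8.32%) and none on the lower side (background 5.14%), shares that rest on few genes. Their median was 0.22 against -0.04 over all measured genes, and with the median over a gene's probes it was 0.10, with 5 genes past 2-fold on the higher side. Arrb1, the gene of β-arrestin 1, which uncouples activated receptors from G proteins, gave 5000 in the co-culture and 997 in the naive-only culture, a difference of 2.32 ± 0.20 or 4.98-fold. Arrb2 was at 0.39. Pde4a, a phosphodiesterase that destroys cyclic AMP, gave 361 in the co-culture and 93.4 in the naive-only culture (1.94 ± 0.21), and Adcy7, an adenylyl cyclase that makes it, 4726 in the co-culture and 1810 in the naive-only culture (1.38 ± 0.20). The γ subunit gene Gng2 was at 1.33 ± 0.20. Crem, a transcription factor of the cyclic AMP response, and Gna15, the α subunit of lymphoid and myeloid cells, were both at 1.02, with technical errors that reach below 2-fold. Gnas, the Gs α subunit, was at 0.22 and Gnai2, the main Gi α subunit of lymphocytes, at 0.49, while Gnb4 (-0.98) and Gna12 (-0.88) were lowest. Gnal and Gng3 were above background in the co-culture alone, at least 8.23-fold and 4.86-fold higher, and the receptor kinase gene Grk3 in the naive-only culture alone, at least 4.09-fold lower.

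**Figure D4:**
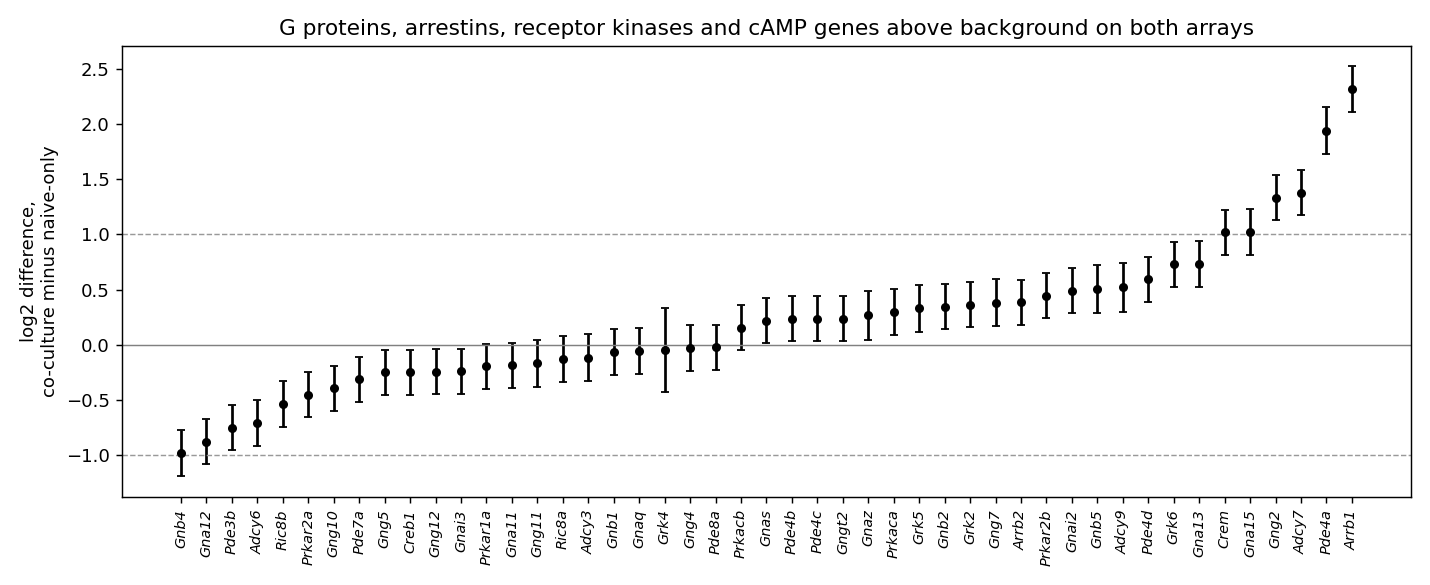
Log2 difference of co-culture minus naive-only with its technical error for the 47 measured genes of G protein subunits, arrestins, receptor kinases and the cyclic AMP pathway, in order of the difference, with dashed lines at 2-fold. The 6 genes past the upper line end with Pde4a and Arrb1, and no gene passes the lower line.

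Enzymes that make or break the receptors' lipid and metabolite ligands differed little. Of 24, 16 were measured on both arrays, with 1 past 2-fold on each side (background as above) and a median of 0.08. Kynu, which breaks down kynurenine, a relative of the Gpr35 ligand kynurenic acid, gave 24.3 in the co-culture and 105 in the naive-only culture (-2.12 ± 0.34). Ido1, which starts kynurenine synthesis, gave 64.5 in the co-culture and 31.6 in the naive-only culture (1.02 ± 0.32), so its difference could lie below 2-fold. With normexp no ligand enzyme passed 2-fold. For Gpr183, the hydroxylase gene Ch25h, which starts synthesis of its oxysterol ligand, was above background in the naive-only culture alone (5.09 in the co-culture and 31.8 in the naive-only culture, at least 1.59-fold lower), and Cyp7b1, the next enzyme, on neither array. For lysophosphatidylserine, Pla1a, which releases it, was at 0.52 ± 0.20, and the lipases Abhd16a and Abhd12 at -0.33 and -0.06.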

How the data were processed

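Per the labels' protocols, RNA of sorted CD4 T cells was amplified and labelled with Cy3, 1 array per culture. The authors deposited scanner files with spot intensity, which, per the file headers, is background-subtracted by Agilent Feature Extraction with a technical error (the submitters' processing notes name 9.5.1.1, the headers a later version). Their deposited value table, also intensity, was normalized by the authors, and its sorted columns match within 0.0369%.

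Repeated spots of a probe were averaged, and levels were the log2 ratio of processed signal to the 75th percentile of its array (301 in the co-culture and 299 in the naive-only culture), so intensities in the text are almost on one scale. A gene was read from its probe with the highest mean level. It was measured where the software called it well above background on both arrays. Above background on 1 array, it got a bound against the higher of its own signal and the lowest signal above background on the other. Of 32962 named probes, 27235 matched RefSeq (GRCm38.p6, for names only), as did 94 of the 104 member probes. No spot was saturated. Promoters of members on chromosome 18 were not used here, and a few members are counted but not reported singly here.

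The members, gene lists and roles were chosen with earlier results of these data known, and the grouping by role after the values were seen. Named were all members past 2-fold, bounds past 2-fold, the 5 brightest in the co-culture, lymphocyte, lipid and acid receptors fixed by name, and list genes past 2-fold. Others named for comparison, such as Gpr3, Gpr6, Gpr20, Gpr77, Gpr125, the internal membrane proteins and list genes within 2-fold, were chosen after their values were seen. The procedure was tested on simulated data that held only changes well past 2-fold and left dim genes unchanged. That test does not cover changes near 2-fold or changes of dim genes. Other scalings, the deposited table, normexp (offset 50), filters and probe rules were tried. Python 3.11.15, pandas 2.3.3, R 4.3.3 and limma 3.58.1 were used.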

Additional observations from a re-analysis of the deposited data

How the results depend on the processing

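No paired analysis was possible because each condition had 1 array. The arrays' number and, for dim genes, signal over background limit precision. Under 3 other scalings, the deposited table, leaving out outlier spots and taking the median over a gene's probes, the members' counts past 2-fold stayed at 2 higher and 3 lower. Their median ran from -0.004 with normexp to 0.18 with only genes at or above the median level. Normexp gave 1 higher and 2 lower members, and 0 ligand enzymes past 2-fold in each direction. With no filter on dim genes, 9 of 89 members were higher and 13 lower, and 10 of 64 signalling genes higher and 2 lower. Of 24 ligand enzymes, 1 was then higher and 2 lower. Most members in that count were not above background on both arrays. Keeping only genes at or above the median level left 9 members, 1 higher and 0 lower, and 3 ligand enzymes, 0 past 2-fold in each direction. Shares of all genes past 2-fold were not computed with normexp or under these 2 filter settings, so the counts have no background beside them. Detected members numbered 44 in the co-culture and 50 in the naive-only culture under a looser call, against 32 and 36, and the members detected on neither array 35 against 49. The looser call was not counted over all named genes. Of 173 values of named members under these alternatives, 6 moved by more than their 95% technical interval, all with normexp and none with a change of sign, among them Gpr183 at -2.87 and Gpr25 at -2.34. Some of the 173 could not move, since for a gene with 1 probe the filters and the median over probes return the main value. Intervals are wide for genes above background on 1 array, so the log2 bound of Gpr141 counted as unmoved at 3.44 and, with normexp, 1.80. Bounds also shrank with normexp, to under 2-fold for Gpr1, Gpr4, Gpr112 and Gpr160. The cause was not tested.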

Other observations

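Receptors for lipids and related ligands that carry other names were read in the same way, from a list of 41 genes written after the data were seen. The list was drawn up by name and also held the Gprc genes and Gpr genes with letters after the number, such as Gpr137b. Of all 41, 20 were measured on both arrays, 5 past 2-fold on the higher side in the co-culture (8.32% of all measured genes) and 4 on the lower side (5.14% of all). These counts cover the whole list and not lipid receptors alone. Cysltr1 and Cysltr2, the receptors for cysteinyl leukotrienes, were both higher. Cysltr1 gave 787 in the co-culture and 43.5 in the naive-only culture (4.17 ± 0.24), and Cysltr2 456 in the co-culture and 149 in the naive-only culture (1.60 ± 0.21). Ltb4r1, the leukotriene B4 receptor gene, gave 912 in the co-culture and 70.8 in the naive-only culture (3.68 ± 0.22). Among prostaglandin receptors, the prostacyclin receptor gene Ptgir (1.81 ± 0.20) and the Gs-coupled prostaglandin E2 receptor gene Ptger2 (1.48 ± 0.21) were higher, whereas Ptger4, also a receptor for prostaglandin E2, was lower (-1.01 ± 0.20) by a margin over 2-fold smaller than its technical error. Hcar2, the niacin receptor gene, was lower, with 34.4 in the co-culture and 169 in the naive-only culture (-2.31 ± 0.28), as were the formyl peptide receptor gene Fpr2 (-1.24 ± 0.21) and the lysophosphatidic acid receptor gene Lpar6 (-1.18 ± 0.20). Of the 41, 2 were above background in the co-culture alone and 3 in the naive-only culture alone. In the co-culture these were Gprc5c, 1 of the Gprc genes on the list, at least 3.31-fold higher, and Lpar2, at least 2.07-fold higher. In the naive-only culture they were Ptafr, Ptger1 and Ptger3, at least 2.91-fold, 2.27-fold and 1.14-fold lower in the co-culture.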
